A study of Mus musculus with 6 samples.

Results

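The genes described here are 7 transcripts that stood among the largest decreases in Nae1T-KO CD8+ T cells and that belonged to no receptor family: Samd3, Nrgn, Spp1, Lipg, Sh3bgrl, Tex15 and Dapl1. They are 7 of the 18288 gene symbols in the deposited table and 7 of the 13819 genes tested. They were chosen by the same Nae1T-KO and Nae1WT values that are given below, so the difference between the groups is a description for these 7 genes and carries no test. The order behind the choice took genes called by limma at a Benjamini-Hochberg adjusted p under 0.05, with a mean of at least 5 CPM (reads scaled to 1000000 assigned reads per library) and with no overlap between the groups, and ranked them by log2 fold change. Nae1 came first, Samd3, Nrgn, Spp1 and Lipg followed it, Sh3bgrl was at place 7 and Tex15 at place 10. The receptor-family and signalling genes set aside among them were Il18r1, Sh2d1a and Ly6c2. Dapl1 was at place 21 and entered the set apart from the 10 largest decreases.

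The libraries came from mouse CD8+ T cells at day 2 of activation in culture, from 3 Nae1T-KO and 3 Nae1WT samples that the labels call biological replicates. NAE1 is a subunit of the enzyme that activates NEDD8, a small ubiquitin-like protein, and the study asked what its loss does to effector CD8+ T cells. By its name the Nae1T-KO line lacks Nae1 in T cells, and the sources used here give no Cre driver, strain, age or stimulus. Poly(A) RNA was sequenced, and the values are normalized counts, that is, reads per gene divided by a size factor for each library. Reads assigned to genes ran from 16994995 to 20849511 in the Nae1T-KO libraries and from 15628252 to 25444653 in the Nae1WT libraries. Nae1 averaged 365 ± 26.4 normalized counts in Nae1T-KO cells and 1763 ± 145 in Nae1WT cells (SD, n = 3 each), a log2 fold change of −2.27 (limma, adjusted p = 5.03e-07). The sum over 8 measured CD8+ T cell markers, of which Cd5 was called higher (0.53) and Cd3g lower (−0.51), was 32810 to 34260 in Nae1T-KO libraries and 32460 to 36000 in Nae1WT libraries, led by Cd8a at 6993 ± 817 in Nae1T-KO cells and 7450 ± 638 in Nae1WT cells. The labels give no sex. By Xist and Y-linked transcripts, Nae1T-KO replicates 1 and 2 and Nae1WT replicate 3 were female, and Nae1T-KO replicate 3 and Nae1WT replicates 1 and 2 were male. These are bulk libraries, in which fewer cells that express a gene and less of its RNA per cell cannot be told apart.

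The 7 genes are not known to act in one pathway. Spp1 encodes osteopontin, a secreted phosphoprotein that binds integrins and CD44 and that activated T cells and macrophages release. Lipg encodes endothelial lipase, a secreted phospholipase of the lipoprotein lipase family that acts on high-density lipoprotein. Nrgn encodes neurogranin, a small protein best known in neurons, where it holds calmodulin through an IQ motif. Sh3bgrl encodes a small protein with a thioredoxin-like fold, and Samd3 a protein with a sterile alpha motif (SAM) domain whose function is little described. Tex15 is known from germ cells, where it takes part in meiotic recombination and in piRNA-directed silencing of transposons together with PIWIL2. Dapl1, a relative of the autophagy suppressor DAP, is known in CD8+ T cells as a transcript of naive and memory cells.

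Promoter windows of RefSeq (GRCm38.p6), from 250 bases before to 50 bases after an annotated start, were found for 5 of the 7 genes, with none for Lipg and Tex15. Those of Samd3, Spp1 and Dapl1 are shown because they stand for the range within the set: Samd3 had the largest decrease, Spp1 the most motif matches and Dapl1 the smallest decrease. Each is printed 5′ to 3′ on the strand of the gene, up to the base before the first annotated start, with matches to the searched motifs in capitals. The Samd3 stretch covers chr10:26229457-26229615 on the plus strand, the Spp1 stretch chr5:104434861-104435110 on the plus strand and the Dapl1 stretch chr2:59484403-59484652 on the plus strand.
Samd3: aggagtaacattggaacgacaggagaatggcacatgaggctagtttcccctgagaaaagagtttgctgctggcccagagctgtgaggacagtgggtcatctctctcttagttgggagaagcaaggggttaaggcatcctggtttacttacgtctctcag
Spp1: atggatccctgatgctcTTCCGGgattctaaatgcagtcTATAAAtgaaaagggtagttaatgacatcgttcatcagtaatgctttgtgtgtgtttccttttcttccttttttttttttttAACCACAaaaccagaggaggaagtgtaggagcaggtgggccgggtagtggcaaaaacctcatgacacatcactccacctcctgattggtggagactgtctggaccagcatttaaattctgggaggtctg
Dapl1: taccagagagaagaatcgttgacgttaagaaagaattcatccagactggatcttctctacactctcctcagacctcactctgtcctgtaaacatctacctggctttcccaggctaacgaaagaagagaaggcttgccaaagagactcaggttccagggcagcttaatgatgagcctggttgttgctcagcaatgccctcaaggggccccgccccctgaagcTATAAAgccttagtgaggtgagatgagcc
Matches were sought on both strands to AP-1 (TGANTCA), CRE (TGACGTCA), T-box (GGTGTGA), RUNX (TGTGGTT), antioxidant response (TGANNNNGC), and to the E-box letters CACGTG, the TATA letters TATAAA and, for ETS factors, CCGGAA, of which AP-1 and antioxidant response matches can overlap each other. In the Spp1 stretch the capitals mark, from the 5′ end, an ETS match on the other strand, a TATA match 211 bases before the start and a RUNX match on the other strand 129 bases before the start. RUNX letters occur in 5.27% of the 32851 windows of all genes, ETS letters in 14.9% and TATA letters in 13.6%. In the Dapl1 stretch the capitals mark a TATA match 29 bases before the start. No searched motif lies in the printed Samd3 stretch, and the rest of its window holds a T-box match on the other strand, letters found in 3.98% of all windows. The Nrgn window held none of the motifs, and that of Sh3bgrl held an ETS match. No AP-1, CRE or E-box match was found in any window of the set, letters that 7.81%, 1.79% and 7.15% of all windows hold. Antioxidant response letters, which 41.3% of all windows hold, occur past the start of Spp1 and in a second Spp1 window that begins inside the gene. These are matches of letters in these windows and say nothing of binding.

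Normalized counts of all 7 genes were lower in every Nae1T-KO library than in every Nae1WT library. Over all tested genes, 17.0% were lower with no overlap between the groups, and 33.7% did not overlap in either direction. By limma's adjusted p, 12.7% of all tested genes were called, 6.18% lower and 6.53% higher in Nae1T-KO cells, and 0.608% were both called and at least 2-fold lower. The 7 genes do not overlap between the groups, and belong to that last share, because of how they were chosen. The log2 fold changes are on the log2(normalized count + 1) scale, which understates changes of low counts.

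**Figure D1:**
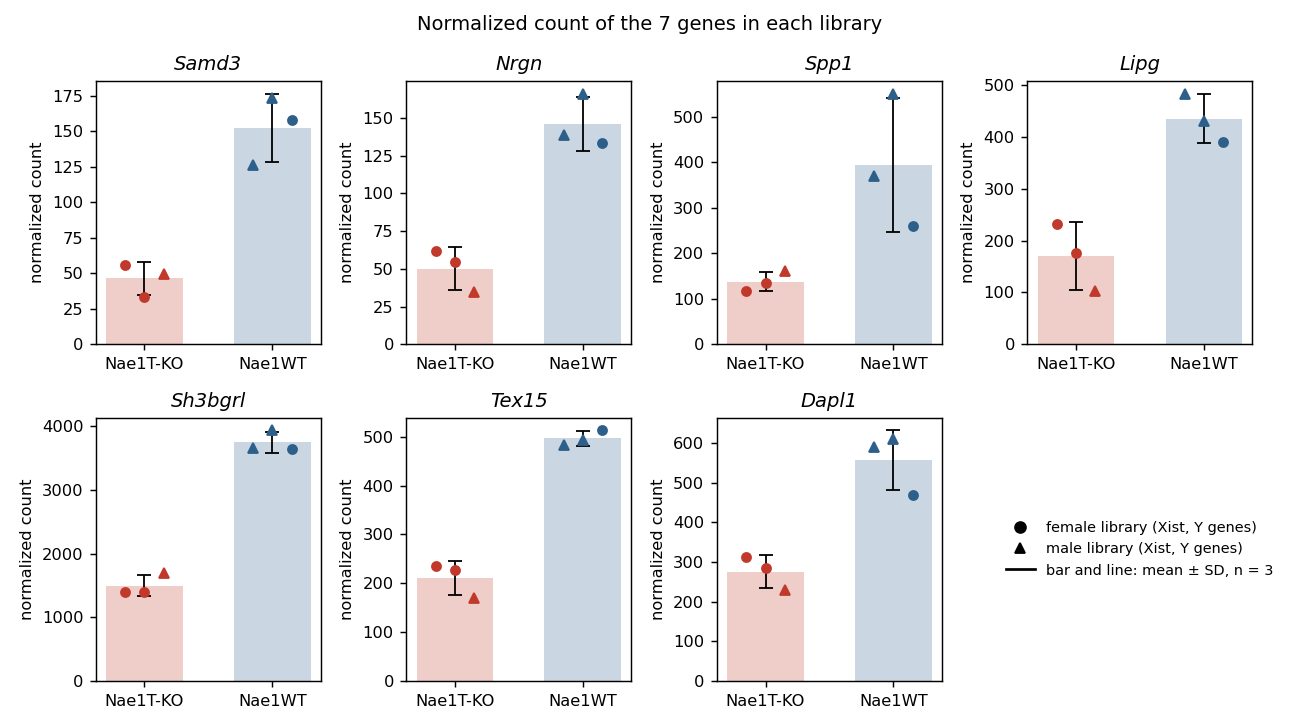
Normalized count (linear axis from 0) of each of the 7 genes in the 3 Nae1T-KO libraries (left) and the 3 Nae1WT libraries (right), with circles for female and triangles for male libraries, bars for the group mean and lines for the SD (n = 3). In each panel the highest Nae1T-KO library lies under the lowest Nae1WT library. Relative to the mean, the spread among Nae1WT libraries is widest for Spp1.

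Spp1 and Lipg code for secreted proteins. Spp1 (chromosome 5, 104435111 to 104441053, plus strand, GRCm38) was at 117, 135 and 161 normalized counts in replicates 1, 2 and 3 of Nae1T-KO, against 371, 551 and 259 in replicates 1, 2 and 3 of Nae1WT. The Nae1T-KO libraries lay close together, while Nae1WT replicate 2 stood high and replicate 3 low within their group. The means were 138 ± 21.7 in Nae1T-KO cells and 394 ± 147 in Nae1WT cells (SD, n = 3 each), with a log2 fold change of −1.45 ± 0.25 (SE).

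Osteopontin's partners did not move in one direction. Of 22 listed receptors, processing enzymes, relatives and regulators, 14 had a row and 10 were tested, of which 1 was called higher, 2 lower and 7 neither, with a median log2 fold change of −0.06 against −0.01 over all tested genes. Itgav, the αv subunit of osteopontin-binding integrins, rose to 1613 ± 85.8 normalized counts in Nae1T-KO cells, against 1134 ± 59.8 in Nae1WT cells (log2 fold change 0.51, limma adjusted p = 0.0023). Itga4, the α4 subunit, fell to 1085 ± 194 in Nae1T-KO cells, against 1926 ± 259 in Nae1WT cells (−0.83, limma adjusted p = 0.0048). Eomes, a T-box factor of effector and memory CD8+ T cells, fell to 791 ± 106 in Nae1T-KO cells, against 1438 ± 176 in Nae1WT cells (−0.86, limma adjusted p = 0.0016). Cd44, the other osteopontin receptor, had 4832 ± 489 in Nae1T-KO cells and 4994 ± 131 in Nae1WT cells (adjusted p = 0.71 by limma). Tbx21, which encodes the Spp1 regulator T-bet, had 1529 ± 84.0 in Nae1T-KO cells and 1612 ± 96.8 in Nae1WT cells (adjusted p = 0.55 by limma). Neither Runx2 (log2 fold change −0.16) nor Runx3 (0.09) passed the threshold.

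Lipg (chromosome 18, 74939322 to 74961263, minus strand) was at 233, 176 and 103 normalized counts in replicates 1, 2 and 3 of Nae1T-KO, against 484, 432 and 390 in replicates 1, 2 and 3 of Nae1WT. Replicate 3, the male one, was the lowest Nae1T-KO library, and this group had the widest relative spread of the set, a coefficient of variation of 38.1% against 10.8% in Nae1WT cells. The means were 171 ± 65.0 in Nae1T-KO cells and 435 ± 47.1 in Nae1WT cells, a log2 fold change of −1.42 ± 0.26 (SE).

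Among 25 lipases and partners of lipases, 19 had a row and 18 were tested, of which 3 were called higher and none lower, with 15 not called and a median of 0.02. The 3 are 16.7% of the 18, where 6.53% of all tested genes were called higher and 6.18% lower. Furin, whose product is a proprotein convertase that cleaves endothelial lipase among many substrates, was called higher under every alternative tried. Furin had 3383, 3032 and 2715 normalized counts in Nae1T-KO libraries, against 1047, 1121 and 1216 in Nae1WT libraries, a log2 fold change of 1.43 ± 0.09 (SE, limma adjusted p = 2.7e-05). Lmf2, a lipase maturation factor relative, was called higher at 0.35 and Pnpla2, adipose triglyceride lipase, at 0.29. Both calls were lost in several fits that left out 1 library: without Nae1WT replicate 3, limma's adjusted p was 0.097 for Lmf2 and 0.14 for Pnpla2. Lpl, lipoprotein lipase, was under the filter with 5.48 ± 2.13 normalized counts in Nae1T-KO cells and 3.11 ± 3.14 in Nae1WT cells, and Lipc has no row.

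Samd3, Nrgn and Sh3bgrl code for intracellular proteins. Samd3 (chromosome 10, 26229616 to 26272916, plus strand) was at 55.9, 33.5 and 49.5 normalized counts in replicates 1, 2 and 3 of Nae1T-KO, against 126.5, 173.5 and 157.6 in replicates 1, 2 and 3 of Nae1WT. Nae1T-KO replicate 2 was the lowest library of all and Nae1WT replicate 2 the highest. With a log2 fold change of −1.72 ± 0.22 (SE) it was the most lowered of the set, at 46.3 ± 11.55 in Nae1T-KO cells and 152.5 ± 23.9 in Nae1WT cells (SD, n = 3 each). The counts behind it were low: 50, 38 and 49 reads in Nae1T-KO libraries and 103, 166 and 207 reads in Nae1WT libraries. For the 38 reads of Nae1T-KO replicate 2 the exact 95% Poisson interval is 26.9 to 52.2 reads, which covers counting error only.

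Its SAM domain relatives were called in both directions. Of 13 listed, 10 had a row and 9 were tested, with 1 called higher, 1 lower and 7 neither, and a median of 0.16. That is 11.1% higher and 11.1% lower, beside 6.53% and 6.18% of all tested genes. Samsn1, an adaptor of lymphocytes, fell to 839 ± 122 normalized counts in Nae1T-KO cells, against 1305 ± 6.63 in Nae1WT cells (log2 fold change −0.65, limma adjusted p = 0.0033). Samd4b, an RNA-binding translation repressor of the Smaug type, rose to 976 ± 139 in Nae1T-KO cells, against 700 ± 41.5 in Nae1WT cells (0.47, limma adjusted p = 0.019). The Samd4b call was lost when any of 4 libraries was left out, with an adjusted p of up to 0.068 among those fits.

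Nrgn (chromosome 9, 37544493 to 37552745, minus strand) was at 61.5, 54.6 and 34.3 normalized counts in replicates 1, 2 and 3 of Nae1T-KO, against 139, 166 and 133 in replicates 1, 2 and 3 of Nae1WT. As for Lipg, replicate 3 was the lowest Nae1T-KO library. The means were 50.2 ± 14.1 in Nae1T-KO cells and 146 ± 17.7 in Nae1WT cells, a log2 fold change of −1.56 ± 0.23 (SE), from 55, 62 and 34 reads in Nae1T-KO libraries and 113, 159 and 175 reads in Nae1WT libraries.

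Of 29 listed calmodulin genes and calmodulin partners, 26 had a row and 23 were tested. Limma, which called 12.7% of all tested genes, called none of these 23. At an unadjusted p under 0.05 limma counted 2 of them, and edgeR's quasi-likelihood test, DESeq2 and limma-voom also called 0 of the 23, with 2, 3 and 2 at an unadjusted p under 0.05. The median over the list was 0.06. Calm2 and Calm3, which code for calmodulin, had log2 fold changes of −0.21 and −0.04, neither past the threshold, and that of Calm3 turned to 0.00815 under total-count scaling. Gap43, neurogranin's closest relative among these with a row, had 10.2 ± 3.49 in Nae1T-KO cells and 10.6 ± 8.67 in Nae1WT cells, and Pcp4 has no row.

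Sh3bgrl (chromosome X, 109095407 to 109162467, plus strand) had the highest counts and the smallest standard error of the set. It was at 1404, 1397 and 1691 normalized counts in replicates 1, 2 and 3 of Nae1T-KO, against 3661, 3940 and 3646 in replicates 1, 2 and 3 of Nae1WT. The male Nae1T-KO replicate 3 was here the highest of its group. The means were 1497 ± 168 in Nae1T-KO cells and 3749 ± 165 in Nae1WT cells, a log2 fold change of −1.33 ± 0.09 (SE). Gm6377 on the same strand and Gm14869 on the other overlap it in the annotation and were at no more than 7.05 and 5.23 normalized counts in any library.

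Of its 6 listed relatives with a glutaredoxin-like fold, all had a row and 5 were tested, with 1 called lower, none higher and a median of −0.10. That 1 call is 20.0% of the 5, beside 6.18% of all tested genes called lower and 6.53% higher. Sh3bgrl3, the other family member past the filter, had 2220 ± 117 normalized counts in Nae1T-KO cells and 1927 ± 98.4 in Nae1WT cells (log2 fold change 0.20, limma adjusted p = 0.086). Per kilobase of merged exons its level was above that of Sh3bgrl in both groups, at 2704 in Nae1T-KO cells and 2348 in Nae1WT cells. Sh3bgrl2 was under the filter at 3.31 ± 1.52 in Nae1T-KO cells and 3.89 ± 1.93 in Nae1WT cells. Glrx3, a glutaredoxin of iron and sulfur handling, was called lower at −0.35 (limma adjusted p = 0.049). Its call was lost in 10 of 20 alternatives, the stricter threshold included. Limma's adjusted p was 0.052 with upper-quartile scaling, 0.074 with sex as a covariate and 0.17 without Nae1WT replicate 2.

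Tex15 (chromosome 8, 33516689 to 33592503, plus strand) lies on the same chromosome as Nae1. It was at 235, 226.5 and 171 normalized counts in replicates 1, 2 and 3 of Nae1T-KO, against 484, 492 and 513 in replicates 1, 2 and 3 of Nae1WT. The Nae1WT libraries differed by little, a coefficient of variation of 3.04% against 16.6% in Nae1T-KO cells, where replicate 3 was again the lowest. The means were 211 ± 34.9 in Nae1T-KO cells and 496 ± 15.1 in Nae1WT cells, a log2 fold change of −1.25 ± 0.13 (SE).

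Of 34 listed germline and piRNA genes, 12 had a row and 6 were tested, with 1 called higher, none lower and a median of 0.26. With so few tested, 1 call makes 16.7%, beside 6.53% of all tested genes called higher and 6.18% lower. The 1 called was Piwil2, which encodes the piRNA-binding partner of TEX15 in germ cells. Piwil2 had 83.9, 88.1 and 86.8 normalized counts in Nae1T-KO libraries, against 30.7, 36.6 and 28.9 in Nae1WT libraries, a log2 fold change of 1.41 ± 0.20 (SE, limma adjusted p = 0.0020). Tdrd5, a Tudor-domain piRNA gene, was under the filter with 9.58 ± 0.58 normalized counts in Nae1T-KO cells and 2.24 ± 1.97 in Nae1WT cells.

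Dapl1 (chromosome 2, 59484653 to 59505020, plus strand) was at 313, 285 and 230 normalized counts in replicates 1, 2 and 3 of Nae1T-KO, against 591, 609 and 470 in replicates 1, 2 and 3 of Nae1WT. The lowest library of each group was the male one in Nae1T-KO cells and the female one in Nae1WT cells. The means were 276 ± 42.1 in Nae1T-KO cells and 557 ± 75.8 in Nae1WT cells, a log2 fold change of −1.01 ± 0.14 (SE), the smallest decrease of the set.

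The 7 listed DAP and DAPK genes had 3 calls higher, 1 lower and 3 neither, with a median of −0.02. These calls are 42.9% higher and 14.3% lower in a short list, beside 6.53% and 6.18% of all tested genes. Dap itself rose, to 839, 838 and 694 normalized counts in Nae1T-KO libraries, against 433, 410 and 411 in Nae1WT libraries (log2 fold change 0.91 ± 0.10 SE, limma adjusted p = 0.00051). Dapk2, a calmodulin-dependent death-associated kinase, fell to 11.0 ± 4.69 in Nae1T-KO cells, against 40.8 ± 2.94 in Nae1WT cells (−1.89, limma adjusted p = 0.0089). Its relative Dapk1 was called higher, at 0.74 (limma adjusted p = 0.017), a call lost without Nae1T-KO replicate 1 or 2 or Nae1WT replicate 3 (adjusted p 0.051 to 0.067). Dapp1, which shares only part of its name with the family and encodes a B cell signalling adaptor, was called higher at 0.46, a call lost without Nae1WT replicate 2 (limma adjusted p = 0.067).

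Dapl1 was also read beside genes of naive and memory CD8+ T cells. Of 27 listed, 26 were tested, with 6 called higher, 4 lower and 16 neither, and a median of 0.07. This is 23.1% higher and 15.4% lower, beside 6.53% and 6.18% of all tested genes. The called members ran in opposite directions: Satb1, a chromatin organizer high in naive T cells, rose to 9415 ± 839 normalized counts in Nae1T-KO cells, against 4798 ± 1063 in Nae1WT cells (log2 fold change 0.99, limma adjusted p = 0.0039). Il7r, the interleukin-7 receptor chain of naive and memory cells, was called lower at −0.36. This call was near the threshold and was lost in fits that left out single libraries, with limma's adjusted p up to 0.172 (without Nae1WT replicate 3). Cxcr3, a chemokine receptor of memory and effector cells, fell to 206 ± 10.4 in Nae1T-KO cells, against 356 ± 13.7 in Nae1WT cells (−0.78, limma adjusted p = 0.0014). Ly6c2 was called lower at −1.28 and Ly6c1 higher at 1.45, from 21.5 ± 7.24 in Nae1T-KO cells and 7.14 ± 2.37 in Nae1WT cells. These 2 are near-identical neighbours whose reads the counting could divide between them, so the value of Ly6c1 is uncertain, and its call was lost without Nae1WT replicate 2 or 3.

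Each companion gene counted once, 103 were tested, and 15 were called higher and 9 lower, which is 14.6% and 8.74% of them beside 6.53% and 6.18% of all tested genes. Their median was 0.05. The lists were drawn up with earlier results of these data known, and Ly6c2, Itga4, Eomes and Cxcr3 in them also stood in the order of decreases. These shares are therefore a description and no test of relatives or partners.

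**Figure D2:**
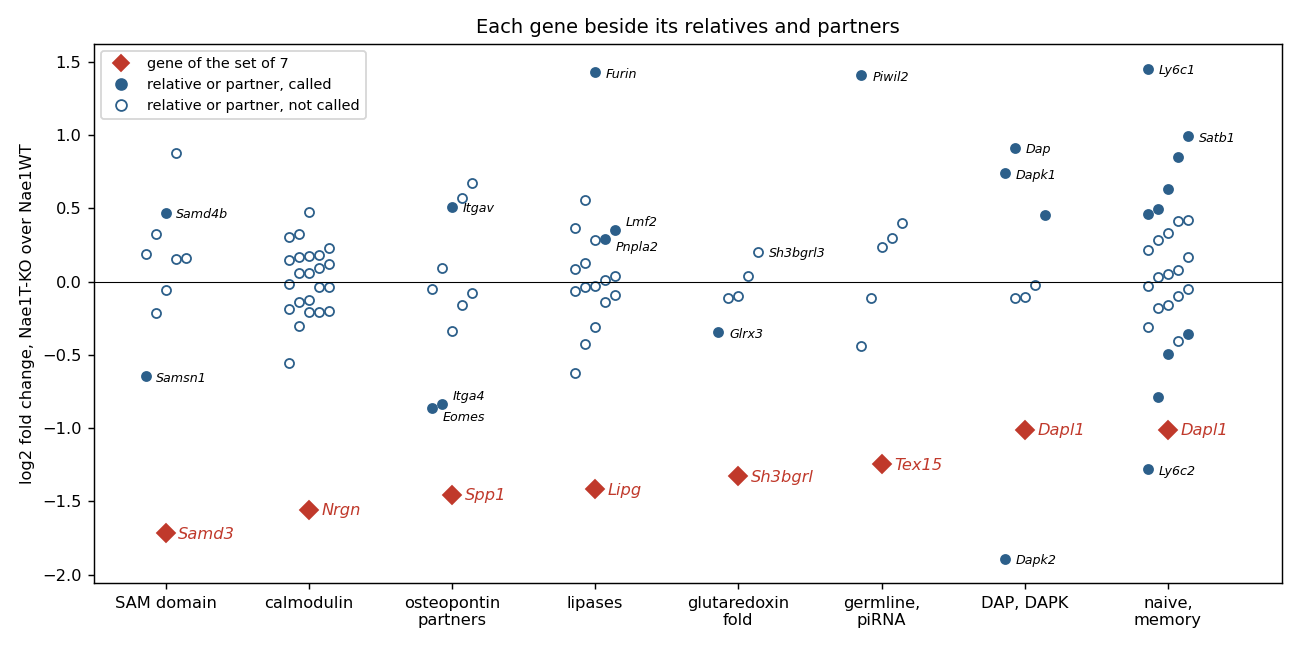
Log2 fold change (Nae1T-KO over Nae1WT, vertical axis) of each of the 7 genes (diamonds) and of the tested genes in its list of relatives or partners (circles, filled where limma's adjusted p was under 0.05), with 1 column per list and Dapl1 in 2 of them. Furin at 1.43, Piwil2 at 1.41 and Dap at 0.91 lie above 0 in columns whose diamonds lie at −1.42, −1.25 and −1.01.

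Levels can be compared between genes only per length. Per kilobase of merged exons, Sh3bgrl was highest at 454 normalized counts in Nae1T-KO cells and 1137 in Nae1WT cells, followed by Dapl1 at 406.5 in Nae1T-KO cells and 820 in Nae1WT cells. Spp1 stood at 83.5 in Nae1T-KO cells and 239 in Nae1WT cells. The other 4 were lower: Nrgn at 34.5 in Nae1T-KO cells and 100.5 in Nae1WT cells, Lipg at 36.2 in Nae1T-KO cells and 92.3 in Nae1WT cells, Tex15 at 21.9 in Nae1T-KO cells and 51.6 in Nae1WT cells, and Samd3 at 12.2 in Nae1T-KO cells and 40.3 in Nae1WT cells. Among tested genes with a length, Sh3bgrl was at percentile 81.8 of levels in Nae1T-KO cells and 92.8 in Nae1WT cells, and Samd3 at 13.3 in Nae1T-KO cells and 29.6 in Nae1WT cells. In this order Nrgn and Lipg did not differ beyond their SD in either group, nor did Sh3bgrl and Dapl1 in Nae1T-KO cells. So the set spans abundant and scarce transcripts, with Sh3bgrl and Dapl1 at one end and Samd3 at the other. Per kilobase, Dap was at 410.5 in Nae1T-KO cells and 217 in Nae1WT cells, so Dapl1 lay within the spread of Dap in Nae1T-KO cells and above Dap in Nae1WT cells.

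**Figure D3:**
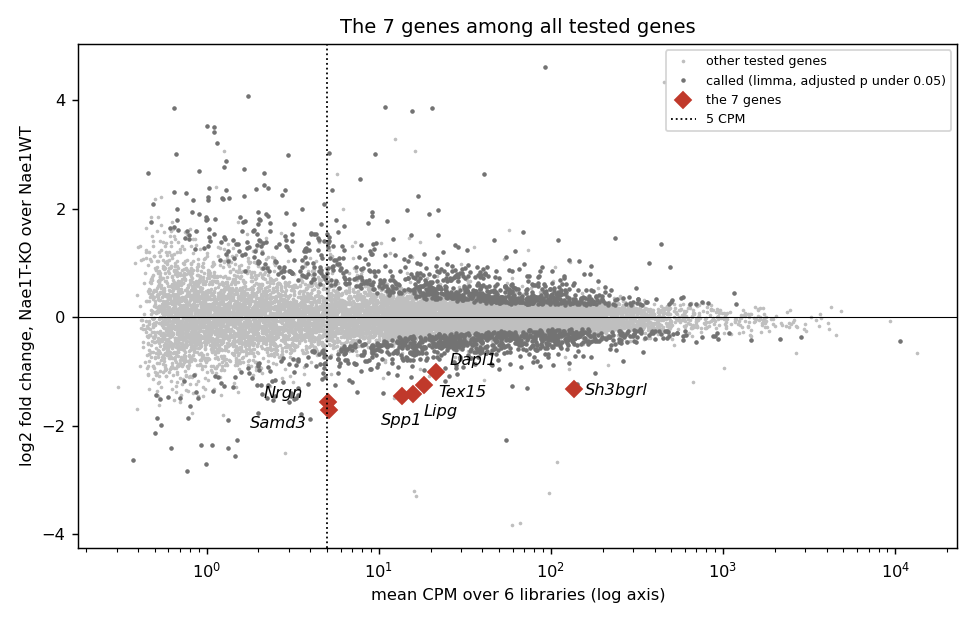
Log2 fold change (Nae1T-KO over Nae1WT) against mean CPM over the 6 libraries (log axis) for all 13819 tested genes, with called genes in dark grey and the 7 genes as diamonds. Samd3 and Nrgn sit just right of the line at 5 CPM, and Sh3bgrl lies apart from the others at 135.9 CPM.

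The threshold of 5 CPM helped decide which genes the order held. Nrgn, at 5.08, and Samd3, at 5.14, lay just inside it. Counting every tested gene, 27 had a more negative log2 fold change than Samd3, of which 9 were not called, 17 were called at under 5 CPM and 1, Nae1, was called above it. Below Tex15 (−1.25) the next gene of the order was Zcchc18 (−1.19), then Socs2 (−1.17) and Unc13a (−1.16), and 10 genes lay between Tex15 and Dapl1. Sit1 (−0.997) followed Dapl1.

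The libraries did not deviate alike over the set. Nae1T-KO replicate 3 was the lowest of its group for Nrgn, Lipg, Tex15 and Dapl1, replicate 2 for Samd3 and Sh3bgrl, and replicate 1 for Spp1. Nae1WT replicate 2 was the highest of its group for 5 of the 7 genes. The median deviation of the 7 genes from their group mean, on the log2 scale, ran from −0.25 in Nae1T-KO replicate 3 to 0.19 in Nae1T-KO replicate 1, and from −0.125 in Nae1WT replicate 3 to 0.14 in Nae1WT replicate 2. Over all tested genes the same medians lay within −0.0015 and 0.011. Scaling by size factors and centring hold those medians near 0, so they are no yardstick for a set of 7 genes.

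Comparing each Nae1T-KO library with each Nae1WT library gives 9 pairs, which reuse the same libraries and are not independent. Each of the 7 genes was lower in the Nae1T-KO library of all 9 pairs. This restates the lack of overlap by which the genes were chosen, so only the size of the differences is described. The range over pairs was narrowest for Sh3bgrl, −1.11 to −1.50 on the log2 scale, and for Tex15, −1.04 to −1.58. It was widest for Spp1, −0.69 to −2.22, and for Lipg, −0.74 to −2.22. Pairs of the same sex can be read apart by sex. For Lipg the female pairs were at −0.74 and −1.14 and the male pairs at −2.22 and −2.06. For Nrgn the female pairs were at −1.10 and −1.27 and the male pairs at −1.98 and −2.24. For Dapl1 the female pairs were at −0.58 and −0.72 and the male pairs at −1.355 and −1.40. In Tex15, and by a small margin in Spp1, both male pairs were also below both female pairs, while the pairs of Samd3 overlapped. For the X-linked Sh3bgrl it was the female pairs that were lower, at −1.38 for both, with the male pairs at −1.11 and −1.22. With 1 male Nae1T-KO and 1 female Nae1WT library, sex and the single library cannot be told apart here.

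**Figure D4:**
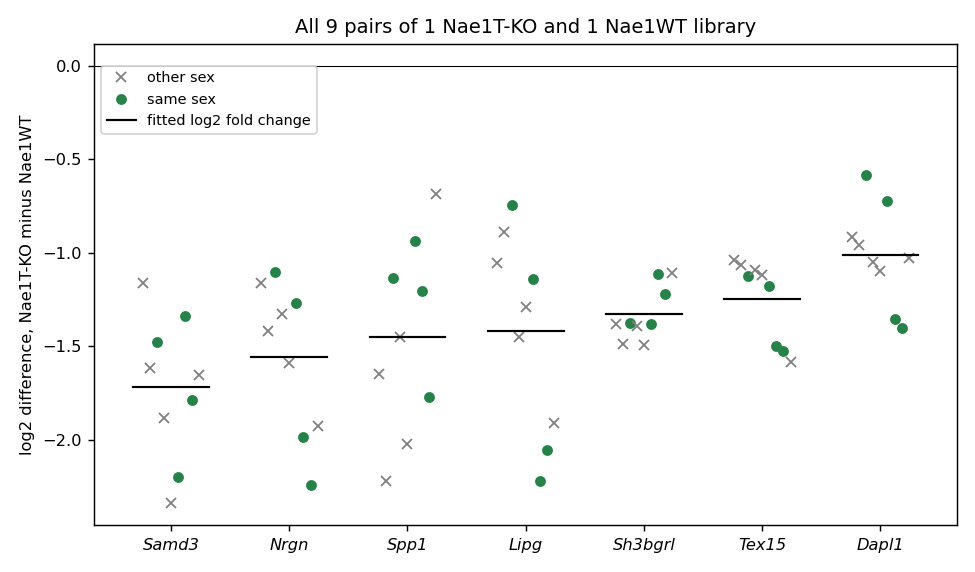
Log2 difference (Nae1T-KO minus Nae1WT, vertical axis) for all 9 pairs of 1 Nae1T-KO and 1 Nae1WT library for each of the 7 genes, with filled circles for pairs of the same sex, crosses for other pairs and a line at the fitted log2 fold change. All pairs lie below 0, which follows from choosing genes without overlap between the groups. They lie between −0.58 and −2.34, with the tightest pairs for Sh3bgrl.

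Within the set, the profiles over the 6 libraries that were most alike were those of Nrgn and Lipg, with a root mean square difference of 0.17 in centred log2 values, and of Tex15 and Dapl1, at 0.19. Spp1 and Lipg were least alike, at 0.55. Other genes at 5 or more CPM were compared, 9146 of them, with the same kinds of genes left out as in the order. The closest profile to Dapl1 was that of Cd24a (0.11), a glycosylated surface protein, followed by Adgre5 (0.13), which encodes CD97. Tex15 was closest to Unc13a (0.12), a vesicle priming factor, and Cd24a (0.14). Sh3bgrl was closest to Il18r1 (0.140) and Ly6c2 (0.14), and Spp1 to the same 2 genes at 0.20 and 0.28. Lipg was closest to Unc13a (0.20) and Socs2 (0.26), Nrgn to Sh2d1a (0.25) and Unc13a (0.26), and Samd3 to Sh2d1a (0.29) and Ly6c2 (0.33). Likeness here includes the difference between the groups that chose the set, so near profiles are those of other lowered genes and are a description.

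The genes beside the 7 on their chromosomes were called in both directions. Of the 42 tested genes taken 3 to each side, 3 were called lower and 4 higher, which is 7.14% and 9.52% beside 6.18% and 6.53% of all tested genes, and their median log2 fold change was 0.05. L3mbtl3, which starts 1.54 kb past Samd3, had 374 ± 34.6 normalized counts in Nae1T-KO cells and 335 ± 51.8 in Nae1WT cells (log2 fold change 0.16, limma adjusted p = 0.44), and Gm4739 on its other side stood at −0.15. Msantd2 and Siae beside Nrgn were at 0.05 and 0.01, Gm52783 and Thoc2l beside Spp1 at −0.33 and −0.14, and Acaa2 and Rpl17 beside Lipg at −0.36 and 0.07, none of them called. Acaa2 was near the threshold (limma adjusted p = 0.058). It was called lower by DESeq2 (adjusted p = 0.036) and by limma without Nae1T-KO replicate 1 (adjusted p = 0.019), and in no other alternative.

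Beside Tex15, 3 genes in a row were called higher. Ppp2cb, a catalytic subunit of protein phosphatase 2A that begins 7.12 kb past Tex15, was at 0.27 and Ubxn8 at 0.36 in log2 fold change. Gsr, glutathione reductase, 60.7 kb past Tex15, had 3224, 3166 and 3382 normalized counts in Nae1T-KO libraries, against 1547, 1604 and 1555 in Nae1WT libraries (1.05 ± 0.06 SE, limma adjusted p = 2e-05). The call of Gsr held under every alternative, and those of Ppp2cb and Ubxn8 were lost when any of several single libraries was left out (limma adjusted p up to 0.091 and 0.11). Purg, on the other side of Tex15, was at 0.08 and not called. Beside Sh3bgrl, Hmgn5, a nucleosome-binding protein gene 82.0 kb away, was called lower with 1015 ± 19.8 normalized counts in Nae1T-KO cells and 1415 ± 43.3 in Nae1WT cells (−0.48, limma adjusted p = 0.0020). Apool, 3149 kb away on the other side, was called lower at −0.51, a call lost without Nae1T-KO replicate 2 or Nae1WT replicate 2 or 3 (adjusted p 0.077 to 0.12). Pkp4 beside Dapl1 was called lower at −0.39, a call lost without Nae1WT replicate 1 or 3 (adjusted p 0.067 and 0.064), and Gm13552 on the other side stood at 0.14. Hsd17b11, the third tested gene before Spp1, was called higher at 0.69.

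**Figure D5:**
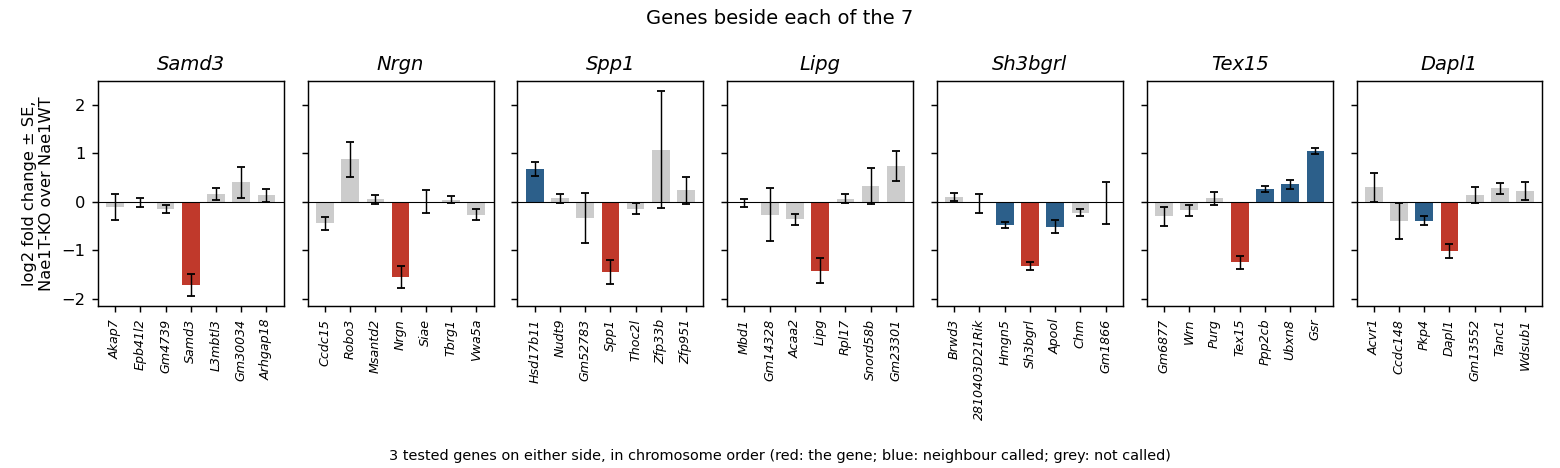
Log2 fold change ± SE (Nae1T-KO over Nae1WT, vertical axis) of each of the 7 genes (red) and of the 3 nearest tested genes to each side in chromosome order (blue where limma's adjusted p was under 0.05, grey otherwise). The tallest neighbour bar above 0 that was called is Gsr beside Tex15, at 1.05.

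Markers of other cells that make some of these genes were read beside them. Macrophages and monocytes make Spp1: of 12 of their markers 5 had a row, their sum was 133 to 200 normalized counts in Nae1T-KO libraries and 90.6 to 116 in Nae1WT libraries, and the defining markers Adgre1, Csf1r, Mrc1 and Fcgr1 have no row. Platelets of humans hold NRGN: 9 of 10 platelet markers had a row, with sums of 191 to 366 in Nae1T-KO libraries and 119 to 268 in Nae1WT libraries. Endothelial cells make Lipg: 5 of 10 markers had a row, with sums of 133 to 186 in Nae1T-KO libraries and 150.5 to 179 in Nae1WT libraries, mostly Egfl7, and Cdh5 and Cldn5 have no row. For neurons and germ cells, which make Nrgn and Tex15, 5 of 9 markers had a row, with sums of 64.6 to 106 in Nae1T-KO libraries and 46.4 to 74.9 in Nae1WT libraries, mostly Tubb3, while Ddx4 and Dazl were under 10 in every library. The macrophage sums, mostly Cd68 and Ccr2, were higher in every Nae1T-KO library than in every Nae1WT library. None of the 3 tested macrophage and monocyte markers was called. The platelet, endothelial and neuron and germ cell sums overlapped between the groups. Markers of dendritic cells summed to 813 to 1305 in Nae1T-KO libraries and 926 to 1581 in Nae1WT libraries, carried by Batf3 and Cd74. Among the dendritic cell markers, Zbtb46 was called lower (log2 fold change −1.03, limma adjusted p = 0.020) and Xcr1 higher (1.75, limma adjusted p = 0.035). Those of B cells summed to 219 to 623 in Nae1T-KO libraries and 241.5 to 372 in Nae1WT libraries. Erythroid markers summed to 203 to 2058 in Nae1T-KO libraries and 145 to 654 in Nae1WT libraries, and CD4 T cell markers to 850 to 1477 in Nae1T-KO libraries and 629 to 1043 in Nae1WT libraries, carried by Il13 and Gata3, with Cxcr5 called lower (−1.45, limma adjusted p = 0.025). NK and γδ T cell markers summed to 733 to 933 in Nae1T-KO libraries and 1315 to 1674 in Nae1WT libraries, and without Eomes, which CD8+ T cells express too, to 30.0 to 46.4 in Nae1T-KO libraries and 24.0 to 41.9 in Nae1WT libraries. The part of these cells in the 7 differences was not tested.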

How the data were processed

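RNA-seq libraries of 3 Nae1T-KO and 3 Nae1WT samples of CD8+ T cells at day 2 were analysed. Per the submitters' processing notes, HISAT2, the mm10 build and DESeq2 1.42.0 were used, with no counting tool or strand setting named. The authors deposited a table of normalized counts, a non-negative signal per gene and library, in which 100% of values were whole multiples (tolerance 0.001) of what 1 read is worth in that library, so reads were recovered for the count tests. No gene of the table had fewer than 11 reads in all 6 libraries together, so scarcer genes are not analysed here. Limma 3.58.1 (trend, robust, two-sided) was run on log2(normalized count + 1) for the 13819 genes with at least 10 normalized counts in at least 3 libraries, and genes were called at a Benjamini-Hochberg adjusted p under 0.05 over all of them. The alternatives tried were scaling by TMM, upper quartile or total count, other filters and pseudocounts, edgeR 4.0.16, DESeq2 1.42.0 and limma-voom, a stricter threshold, each library left out, replicate blocks and sex as a covariate. Scripts were tested on simulated data.

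The members and all gene lists were chosen with earlier results of these data known. Named besides the 7 were Nae1, 3 set-aside genes, close relatives regardless of value, up to 3 called genes with the largest change per list, the nearest tested neighbours and the 2 closest profiles per gene. Some genes under this rule are not reported here. Further called genes of a list or beside a gene were named after their values were seen. Gene positions and neighbours came from RefSeq (GRCm38.p6), where 18285 of 18288 symbols matched, and exon lengths from GENCODE for 12856 of the 13819 tested genes (93.0%). Intervals of reads cover counting error only.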

Additional observations from a re-analysis of the deposited data

How the results depend on the processing

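The 7 genes were chosen without overlap between the groups. Leaving out a library or changing the pseudocount or filter could therefore not turn the sign of their log2 fold changes. Only the size of the decrease could vary freely in those fits. Over all 19 alternatives it ran from −1.87 to −1.51 for Samd3, −1.72 to −1.31 for Nrgn, −1.72 to −1.18 for Spp1 and −1.68 to −1.09 for Lipg. The range was −1.42 to −1.27 for Sh3bgrl, −1.33 to −1.10 for Tex15 and −1.13 to −0.89 for Dapl1. Counts of calls moved more. Against 1757 genes called in all, fits without 1 library called 842 (without Nae1WT replicate 2, 822 of them among the 1757) to 1767 (without Nae1T-KO replicate 3, 1376 of them among the 1757), with 1017 without Nae1T-KO replicate 2 (960 shared) and 954 without Nae1WT replicate 3 (888 shared). Such fits called 16 to 26 companion genes, against 24, and 4 to 6 neighbours, against 7, with 4 without Nae1WT replicate 1 or 3. At an adjusted p under 0.01, limma called 585 genes, 11 companions and 2 neighbours. Total-count scaling moved the split to 1176 higher and 621 lower, against 903 and 854. With the replicate block by title number the counts were 968 genes, 18 companions and 4 neighbours, and with the replicate block by library name number, on 4 libraries, 314, 7 and 1. Deviations of libraries with the same title number correlated at −0.13, −0.18 and −0.27 over genes. Each of these pairs joined libraries of opposite sex, so these values cannot decide whether the numbers pair the samples. Direction turned in 7 genes, none of them called: Calm3 (0.00815 under total-count scaling, −0.10 to 0.015 with 1 library left out), Cd44 (−0.12 to 0.023), Gm52783 (−0.60 to 0.10), Msantd2 (−0.050 to 0.14) and Rpl17 (−0.0064 to 0.13) with 1 library left out, Gap43 (−0.17 by edgeR, −0.071 with sex as a covariate, −0.22 to 0.44 with 1 library left out) and Siae (−0.000335 by edgeR, −0.0050 by DESeq2, −0.20 to 0.20 with 1 library left out). Calls of Furin, Gsr, Dap, Samsn1 and Itga4 held in every alternative. The cause of the other losses was not tested. Samd3 and Nrgn had the fewest reads, 34 to 62 per Nae1T-KO library, while the standard errors were largest for Lipg (0.26) and Spp1 (0.25).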
